A study of Mus musculus with 2 samples.

Results

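The 33 genes described here are mouse genes of the ATF4 and amino acid stress response. They were chosen by symbol, with earlier results of these data known. They comprise regulators of the ATF4 and CHOP branch and enzymes that make serine, one-carbon units, asparagine, proline and cysteine. All 33 were found among the 54713 rows of the deposited gene table. Ddit3 has a second row with 0 counts in both libraries, which was not used. RNA was sequenced from SV40 MES13, a mouse kidney line described as mesangial, infected with a lentivirus. The infected line Lv_AI662270 overexpresses the long noncoding RNA AI662270, and the line Lv_NC received the control virus and has the genotype label WT. The labels conflict on the construct: the treatment text also names the cell line in place of the insert, and Sox9 as the gene checked by qRT-PCR, while the title, the genotype label and the counts of AI662270 given below name AI662270. Both were labelled untreated, were selected and kept in puromycin and were grown in medium with fetal calf serum. Whether each line is a pool or a clone, and which promoter drives the insert, is not given in the sources used here. Each line gave 1 library, which leaves every difference without a check between replicates: a ratio compares these libraries, not the conditions.

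The integrated stress response slows translation when a kinase phosphorylates the initiation factor eIF2alpha. The kinase GCN2 responds to uncharged tRNA when amino acids run short, and PERK responds to misfolded protein in the endoplasmic reticulum. Translation of Atf4 mRNA then increases, and the ATF4 protein, a basic leucine zipper factor, dimerises with C/EBP proteins and switches on genes of amino acid uptake, synthesis and tRNA charging, along with its own feedback inhibitors. Because ATF4 is controlled in large part by translation, mRNA counts do not measure its protein.

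The AI662270 library held 15062482 counts and the control library 15727023. AI662270 itself had 241 counts in the AI662270 library and 0 in the control library, which is at least 78.4-fold higher if the control is set at 3 counts, the limit that a count of 0 allows. Levels are CPM, counts scaled to library size with TMM factors, and a gene was measured where both libraries averaged at least 1 CPM. A gene is called lower or higher if its log2 ratio, AI662270 over control with 0.5 CPM added, was at least 1 in size and the 95% exact interval of the ratio left out 1. A range in brackets is that interval and covers counting error only. Of 10 mesangial markers 6 were measured, and the list summed to 84.3 CPM in the AI662270 library and 74.5 CPM in the control library. Counts in the AI662270 and control libraries were 549 and 448 for Mcam, 338 and 185 for Pdgfrb and 264 and 356 for Foxd1. They were 68 and 36 for Tbx18, 58 and 26 for Des and 25 and 76 for Gata3. Gata3 alone was called lower, and 0 were called higher. Itga8 and Thy1 had 0 counts in both libraries. Of 7 tubule epithelial markers 3 were measured. The list summed to 218.0 CPM in the AI662270 library and 373.5 CPM in the control library. Slc34a1, Umod and Aqp2 had 0 counts in both libraries, and Cdh1 was 2.16-fold lower in the AI662270 library. Epcam, at 104.4 CPM in the AI662270 library and 184.8 CPM in the control library, was not called. Lrp2 was not called either, at 47.5 CPM in the AI662270 library and 45.6 CPM in the control library. Of 6 podocyte markers 3 were measured, summing to 84.1 CPM in the AI662270 library and 152.9 CPM in the control library, with Nphs1 at 0 in both. Of 6 endothelial markers 0 were measured, summing to 1.41 CPM in the AI662270 library and 0.592 CPM in the control library, with Emcn, Tek and Ehd3 at 0 in both. Of 5 macrophage markers 2 were measured, summing to 14.6 CPM in the AI662270 library and 34.4 CPM in the control library, with Adgre1 and Itgam at 0 in both. The part that these markers have in the results was not tested. In bulk RNA, fewer cells expressing a gene and less RNA per cell cannot be told apart.

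The stress response genes were lower in the AI662270 library as a set. All 33 were measured, 20 were called lower and 0 higher, and 31 had a log2 ratio below 0. Across all 13268 measured genes 5.72% were called lower, 5.59% higher, and 51.3% had a log2 ratio below 0. The median log2 ratio was -1.16 over the 33 genes and -0.02 over all measured genes. At a threshold of 3-fold, 11 of the 33 were lower and 0 higher, against 1.97% lower and 1.86% higher over all measured genes. At 1.5-fold, 24 were lower and 0 higher, against 14.3% lower and 12.9% higher. Together the 33 genes took 4024 CPM in the AI662270 library and 9584 CPM in the control library. Where the mean reached 50 CPM, 16 of 26 members were lower and 0 higher, against 5.2% lower and 1.3% higher over the 5152 genes of that abundance. The authors' deposited comparison rests on the same libraries, without replicates, so it is no independent check on these calls.

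**Figure D1:**
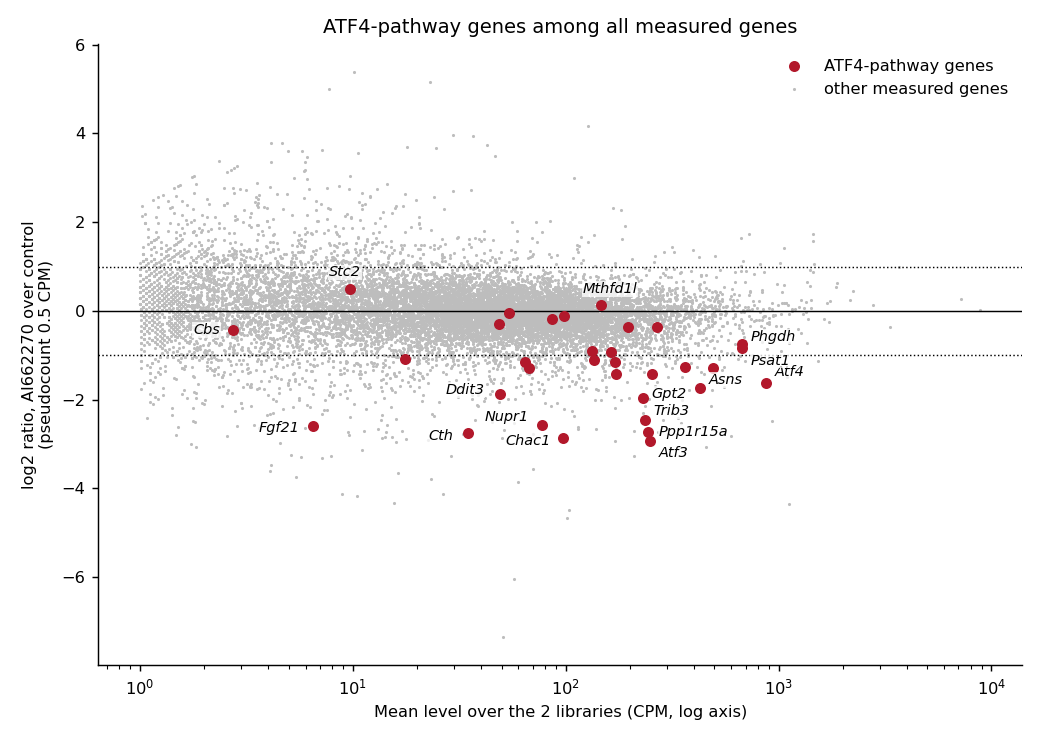
Each point is 1 of 13268 measured genes, with the mean level over both libraries (CPM, log axis) on the x axis and the log2 ratio of the AI662270 library over the control library on the y axis. The 33 stress response genes (red) lie between -2.93 and 0.49, and 20 lie below the dotted line at -1.

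ATF4 dimers with C/EBP proteins bind a composite element whose core reads TGATGNAA, and the letters of this core were looked for in the promoters. RefSeq promoter windows of build GRCm38.p6, from 250 bases before to 50 after the transcript start, were found for 30 of the 33 genes, in 34 windows. The core, on either strand (TTNCATCA on the other), was present in 10 of the 30 genes, or 33.3%, against 4.51% of all 27025 genes with a window. Its stricter form TGATGCAA (TTGCATCA on the other strand), which is contained in the first, was present in 7 of the 30 genes, against 1.03% of all genes. Several of these genes are textbook targets through this element, so its frequency among them is no independent evidence. The sites of the 10 genes are shown on the strand that reads TGATGNAA, with 20 bases on each side, to let the cores be compared. Capitals mark the core.
Atf3: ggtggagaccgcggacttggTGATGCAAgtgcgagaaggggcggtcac
Chac1: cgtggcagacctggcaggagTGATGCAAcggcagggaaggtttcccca
Fgf21: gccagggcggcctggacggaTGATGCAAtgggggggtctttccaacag
Nupr1: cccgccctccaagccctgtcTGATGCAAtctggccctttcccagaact
Pycr1: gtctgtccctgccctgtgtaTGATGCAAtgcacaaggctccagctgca
Got1: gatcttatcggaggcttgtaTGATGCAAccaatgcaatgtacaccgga
Vldlr: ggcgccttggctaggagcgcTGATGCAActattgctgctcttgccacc
Asns: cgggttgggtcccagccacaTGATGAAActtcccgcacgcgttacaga
Trib3: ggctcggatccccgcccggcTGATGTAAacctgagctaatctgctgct
Pck2: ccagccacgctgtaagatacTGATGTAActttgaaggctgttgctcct

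The windows lie at chr1:191183416-191183463 on the plus strand for Atf3, chr2:119351029-119351076 on the minus strand for Chac1, chr7:45615602-45615649 on the plus strand for Fgf21 and chr7:126625553-126625600 on the plus strand for Nupr1. Those of Pycr1 and Asns are on the minus strand at chr11:120643824-120643871 and chr6:7693205-7693252. Those of Got1 and Trib3 are on the plus strand at chr19:43524680-43524727 and chr2:152344019-152344066, and those of Vldlr and Pck2 on the minus strand at chr19:27216800-27216847 and chr14:55540143-55540190. In Nupr1 and Atf3 the core began 110 bases before the RefSeq start, in Pycr1 and Pck2 103 bases before it and in Got1 102 bases before it. In Chac1, Fgf21 and Vldlr it began farther out, at 193, 139 and 200 bases before the start. Vldlr has windows at chr19:27216234-27216533 and chr19:27216770-27217069. Its core lies in the latter alone, inside the gene as counted here, which starts at 27216484. In Asns it began 23 bases before the start, and in Trib3 it began 14 bases after it. Of the 10 genes with a core, 9 were called lower, and the exception was Vldlr. Of the 20 genes with a window but no core, 10 were called lower. Over all measured genes with a window, 14.7% of the 258 with the core were lower and 5.01% of the 9383 without it. Several core holders are textbook targets through this element, so their calls are no independent evidence about it either. The cAMP response element TGACGTCA, which reads the same on both strands, was found in 1 of the 30 genes, Ppp1r15a, against 2.03% of all genes, and begins 12 bases before its start (chr7:45526253-45526300, minus strand).
Ppp1r15a: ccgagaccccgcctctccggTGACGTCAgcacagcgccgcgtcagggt
The ER stress element, CCAAT and CCACG with 9 bases of any kind between them, was found in 0 of the 30 genes on either strand and in 0.137% of all genes.

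Whole windows are given for the core holders with the highest level per length and the lowest log2 ratio, Asns at chr6:7693160-7693459 and Atf3 at chr1:191183284-191183583, both on the minus strand, which is the strand of the gene. Capitals mark the core as it reads on that strand.
Asns: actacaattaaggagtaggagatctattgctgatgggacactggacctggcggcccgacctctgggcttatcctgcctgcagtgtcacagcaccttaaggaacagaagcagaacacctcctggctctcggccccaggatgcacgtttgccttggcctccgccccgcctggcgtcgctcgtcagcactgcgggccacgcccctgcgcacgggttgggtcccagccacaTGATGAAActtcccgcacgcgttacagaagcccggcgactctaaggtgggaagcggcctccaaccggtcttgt
Atf3: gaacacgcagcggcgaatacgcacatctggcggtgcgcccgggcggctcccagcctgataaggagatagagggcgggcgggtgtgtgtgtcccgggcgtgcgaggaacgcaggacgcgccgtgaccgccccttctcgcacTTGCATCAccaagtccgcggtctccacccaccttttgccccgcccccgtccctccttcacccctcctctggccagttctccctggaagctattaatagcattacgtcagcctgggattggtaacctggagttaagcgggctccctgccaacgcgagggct

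Among the transcriptional regulators, 7 of 8 were lower, against 5.72% of all measured genes, with a median log2 ratio of -1.75. Atf4, on chromosome 15 from 80255184 to 80257541 in mm10, had 6642 counts or 426.3 CPM in the AI662270 library and 20022 counts or 1317 CPM in the control library, and was 3.09-fold lower (3.005 to 3.18). Per length it was the most abundant of the 33 genes in the control library at 551.7 FPKM, and came second to Phgdh in the AI662270 library at 183.0 FPKM. Atf3, a stress-induced member of the same family that ATF4 activates, had 890 counts in the AI662270 library and 6675 in the control library. It was 7.69-fold lower (7.17 to 8.25), the lowest log2 ratio of the 33 genes and the 30th lowest of 13268 measured genes. Ddit3, which encodes the ATF4-induced factor CHOP, had 324 counts in the AI662270 library and 1175 in the control library and was 3.72-fold lower (3.28 to 4.22), although it overlaps Mars by 68 bases on the opposite strand. Atf4 and these targets all lay below the control level.

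Trib3, a pseudokinase that binds and restrains ATF4, had 1117 counts in the AI662270 library and 6056 in the control library, and was 5.56-fold lower (5.21 to 5.93). Nupr1, a small nuclear stress protein, had 342 counts in the AI662270 library and 2023 in the control library, and was 6.06-fold lower (5.40 to 6.82). The dimer partners of ATF4 had smaller differences. Cebpb had 605 counts in the AI662270 library and 1446 in the control library, 2.45-fold lower (2.23 to 2.70), and overlaps Tmem189 by 908 bases. Cebpg had 1332 counts in the AI662270 library and 2822 in the control library, 2.17-fold lower (2.03 to 2.32), and was not called when ratios were centred on genes of like abundance, at a log2 ratio of -0.97. The exception in the group was Atf5, a relative of ATF4 that takes part in the mitochondrial stress response, with 1249 counts in the AI662270 library and 1392 in the control library and a log2 ratio of -0.19. Atf5 overlaps Nup62 by 571 bases on the opposite strand, so its value is uncertain.

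**Figure D2:**
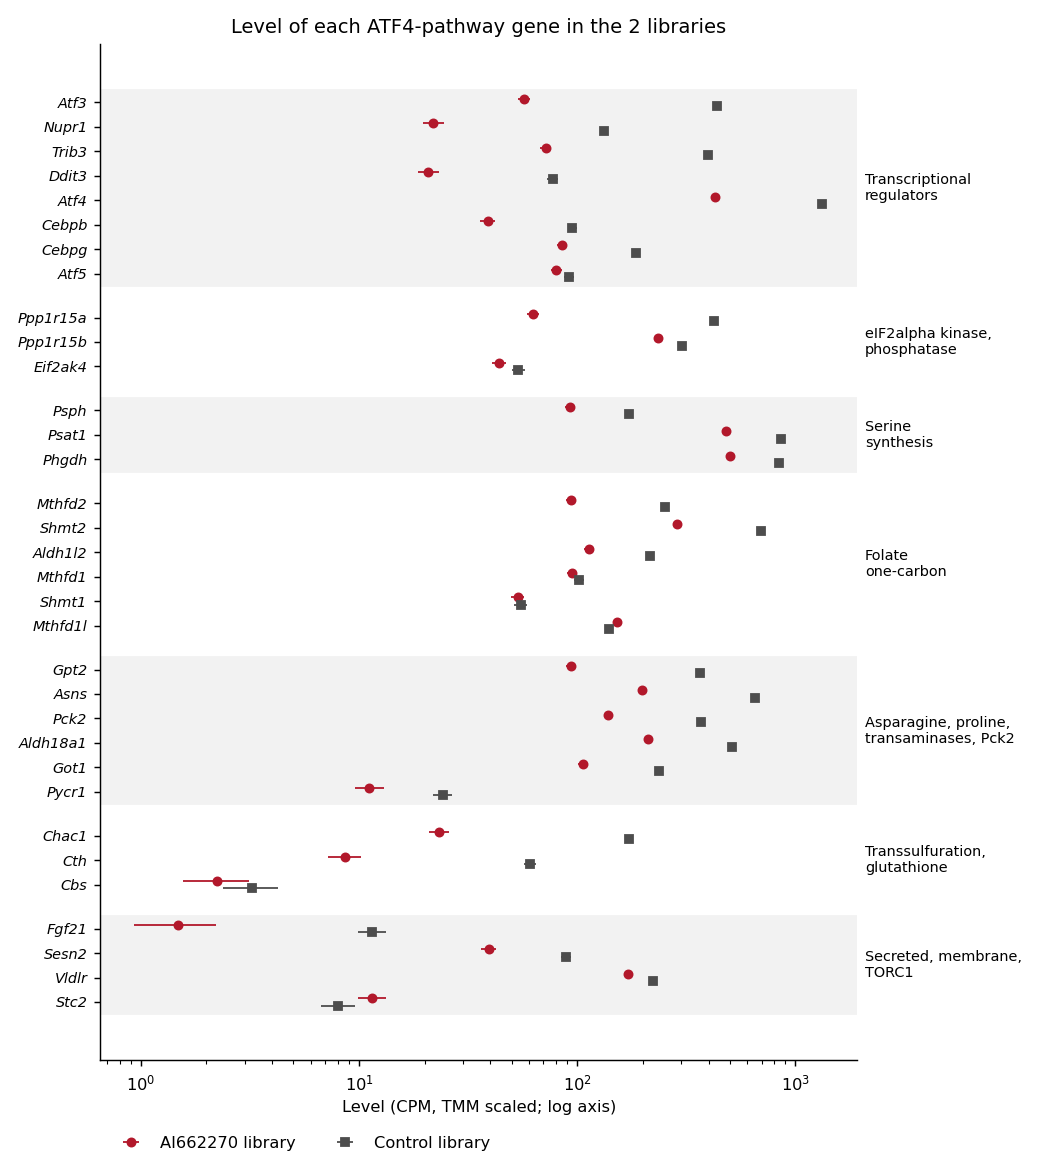
Each row is 1 of the 33 genes, grouped by role, with its level (CPM, log axis) in the AI662270 library (red circle) above that in the control library (grey square); bars are 95% exact Poisson intervals. Atf4 sits at 426.3 CPM in the AI662270 library and 1317 CPM in the control library, while Shmt1, Mthfd1 and Mthfd1l have nearly coincident symbols.

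Of the 3 genes that act on eIF2alpha itself 1 was lower, against 5.72% of all measured genes. Ppp1r15a encodes GADD34, the stress-induced subunit that directs a phosphatase to eIF2alpha, and had 982 counts in the AI662270 library and 6415 in the control library, 6.69-fold lower (6.26 to 7.17). Ppp1r15b, which encodes the constitutive counterpart CReP, had 3649 counts in the AI662270 library and 4615 in the control library and a log2 ratio of -0.37. Within a library, where scaling cancels, there were 0.269 counts of Ppp1r15a per count of Ppp1r15b in the AI662270 library and 1.39 in the control library, a quotient 5.16-fold lower (4.77 to 5.601). Eif2ak4, which encodes the amino acid sensing kinase GCN2, had 681 counts in the AI662270 library and 817 in the control library and a log2 ratio of -0.30, so it was not called. Gene pairs here and below were chosen after their values were seen.

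The enzymes of serine synthesis from glycolytic 3-phosphoglycerate lay just short of the threshold, with 0 of 3 called. At that threshold 5.72% of all measured genes were lower. Phgdh, the first enzyme, had 7795 counts in the AI662270 library and 12789 in the control library, a ratio of 0.595 (0.578 to 0.612). Psat1, the transaminase of the second step, had 7461 counts in the AI662270 library and 13100 in the control library, a ratio of 0.556 (0.540 to 0.572). Psph, the phosphatase that releases serine, had 1446 counts in the AI662270 library and 2628 in the control library, a ratio of 0.537 (0.503 to 0.573), and overlaps Cct6a by 452 bases. The 3 ratios lay close together, between log2 values of -0.89 and -0.75, and all 3 genes were called lower at a threshold of 1.5-fold, as were 14.3% of all measured genes. Phgdh and Psat1 were also among the most abundant members per length, at 203.7 and 114.0 FPKM in the AI662270 library and 334.2 and 200.1 FPKM in the control library.

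Of the 6 folate enzymes 2 were lower, against 5.72% of all measured genes. Both are of the mitochondrial branch. Shmt2, which splits serine to glycine and a one-carbon unit in mitochondria, had 4465 counts in the AI662270 library and 10603 in the control library, and was 2.43-fold lower (2.35 to 2.52). Its cytosolic counterpart Shmt1 had 833 counts in the AI662270 library and 838 in the control library, a ratio of 0.970 (0.880 to 1.07). Shmt1 overlaps Smcr8 by 184 bases on the opposite strand, and Smcr8 had 1810 counts in the AI662270 library and 1790 in the control library. The within-library quotient of Shmt2 over Shmt1 counts was 5.36 in the AI662270 library and 12.7 in the control library, 2.36-fold lower (2.13 to 2.62). Mthfd2, the mitochondrial methylene-tetrahydrofolate dehydrogenase, had 1455 counts in the AI662270 library and 3824 in the control library, and was 2.69-fold lower (2.54 to 2.86).

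The mitochondrial branch was not uniform. Mthfd1l, which releases formate from the mitochondrial folate pool, had 2370 counts in the AI662270 library and 2124 in the control library and a log2 ratio of 0.12. The quotient of Mthfd2 over Mthfd1l counts was 0.614 in the AI662270 library and 1.80 in the control library, 2.93-fold lower (2.69 to 3.19). Aldh1l2, which oxidises the mitochondrial formyl folate, had 1760 counts in the AI662270 library and 3261 in the control library, a ratio of 0.527 (0.497 to 0.558) that missed the threshold. Aldh1l2 overlaps D10Wsu102e by 1056 bases, and that gene had 1492 counts in the AI662270 library and 2641 in the control library. Mthfd1, the cytosolic trifunctional enzyme, had 1473 counts in the AI662270 library and 1550 in the control library and a log2 ratio of -0.11. The median over 477 measured genes of its chromosome, 12, was -0.35, and the log2 ratio of Mthfd1 less that median was 0.24.

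All 6 of the genes for asparagine, proline, transaminase and gluconeogenic enzymes were lower, with a median log2 ratio of -1.35. Of all measured genes 5.72% were lower. Asns, which makes asparagine and lies on chromosome 6 from 7675169 to 7693254 in mm10, had 3072 counts or 197.2 CPM in the AI662270 library and 9968 counts or 655.6 CPM in the control library. It was 3.33-fold lower (3.19 to 3.46). Gpt2, the mitochondrial alanine transaminase, had 1459 counts in the AI662270 library and 5563 in the control library, and was 3.91-fold lower (3.69 to 4.14). Its cytosolic counterpart Gpt had 135 counts in the AI662270 library and 139 in the control library, and the Gpt2 over Gpt quotient was 3.70-fold lower (2.88 to 4.76) in the AI662270 library.

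Pck2, the mitochondrial phosphoenolpyruvate carboxykinase, had 2152 counts in the AI662270 library and 5638 in the control library, and was 2.68-fold lower (2.55 to 2.82). Got1, the cytosolic aspartate transaminase, had 1652 counts in the AI662270 library and 3587 in the control library, and was 2.23-fold lower (2.10 to 2.36). Its mitochondrial counterpart Got2 had 6165 counts in the AI662270 library and 6014 in the control library, so the lower member of a pair was the cytosolic one here and the mitochondrial one for Gpt2 and Shmt2. Aldh18a1, which makes the proline precursor from glutamate, had 3304 counts in the AI662270 library and 7799 in the control library, and was 2.42-fold lower (2.32 to 2.52). Pycr1, the mitochondrial enzyme that completes proline, had 174 counts in the AI662270 library and 367 in the control library, 2.16-fold lower (1.80 to 2.60). Pycr1 was not called when libraries were scaled by total counts or with a pseudocount of 2 CPM.

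**Figure D3:**
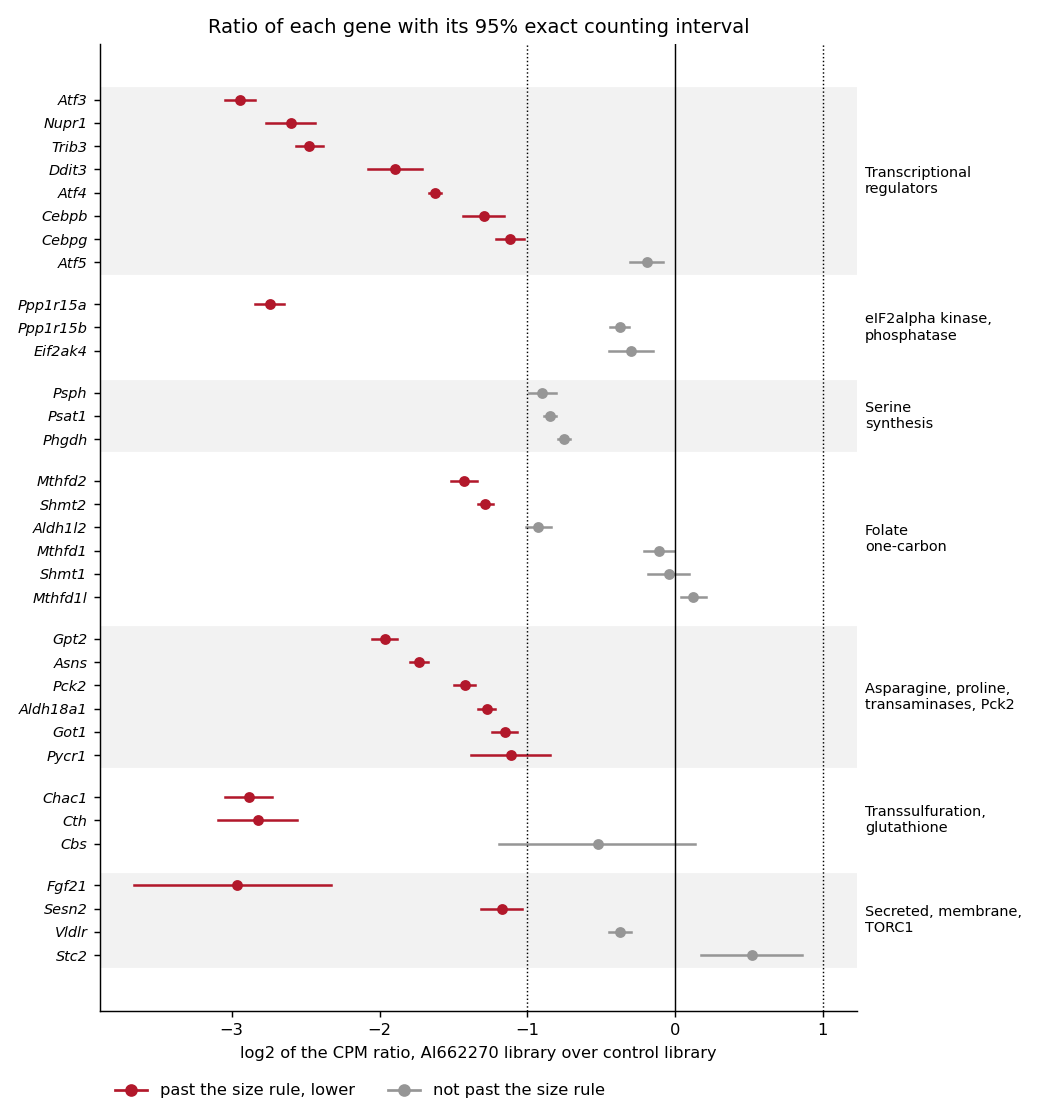
Each row is 1 of the 33 genes, with the log2 of its CPM ratio, AI662270 library over control library, without pseudocount; bars are 95% exact counting intervals and dotted lines mark a 2-fold difference. All 6 genes of the asparagine, proline, transaminase and Pck2 group are past the line at -1, and all 3 serine synthesis genes stop short of it.

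In the branch from methionine to cysteine and glutathione, 2 of 3 genes were lower, against 5.72% of all measured genes. Cth, the lyase that releases cysteine, had 134 counts in the AI662270 library and 924 in the control library, and was 7.07-fold lower (5.89 to 8.54). Cbs, the synthase of the preceding step, was the least abundant member per length in both libraries, with 35 counts in the AI662270 library and 49 in the control library, a ratio of 0.697 (0.438 to 1.10) that was not distinguishable from 1 at this depth. Chac1, an enzyme that breaks down glutathione, lies on chromosome 2 from 119351229 to 119354381 in mm10. It had 363 counts or 23.3 CPM in the AI662270 library and 2617 counts or 172.1 CPM in the control library, and was 7.39-fold lower (6.62 to 8.27). Its relative Chac2 had 186 counts in the AI662270 library and 160 in the control library, and the Chac1 over Chac2 quotient was 1.95 in the AI662270 library and 16.4 in the control library, 8.37-fold lower (6.55 to 10.7).

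Among the secreted, membrane and growth control members, 2 of 4 were lower, against 5.72% of all measured genes. Fgf21, a stress-induced hormone, had 23 counts or 1.48 CPM in the AI662270 library and 175 counts or 11.5 CPM in the control library, and was 7.80-fold lower (5.03 to 12.6), with the widest interval of the 20 lower genes. Sesn2, a leucine-binding inhibitor of the growth kinase complex TORC1, had 614 counts in the AI662270 library and 1350 in the control library, and was 2.25-fold lower (2.05 to 2.48). Its relative Sesn1, a p53 target, went the other way, with 418 counts in the AI662270 library and 193 in the control library, 2.11-fold higher (1.78 to 2.52). The Sesn2 over Sesn1 quotient was 4.76-fold lower (3.90 to 5.82). Vldlr, a lipoprotein receptor, had 2668 counts in the AI662270 library and 3372 in the control library and a log2 ratio of -0.37. Stc2, a secreted glycoprotein, had the highest ratio of the 33 genes, with 179 counts in the AI662270 library and 122 in the control library, a ratio of 1.43 (1.13 to 1.82) that did not pass the rule.

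Ranked among the 5152 genes that averaged 50 CPM or more, Atf3 had the 11th lowest log2 ratio, Chac1 the 14th, Ppp1r15a the 17th, Nupr1 the 24th and Trib3 the 28th. The next of the set were Gpt2 at rank 50, Asns at 65, Atf4 at 79, Mthfd2 at 107 and Pck2 at 110, followed by Shmt2 at 136 and Cebpb at 137. Cth averaged less than 50 CPM, and among all measured genes it ranked 45, between Chac1 at 35 and Ppp1r15a at 48. The 33 genes lie on 15 chromosomes and the 20 lower ones on 12 of them, and with each log2 ratio centred on the median of its chromosome 21 were lower and 0 higher, against 5.41% lower and 5.55% higher over all measured genes.

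Beside the 33 genes, the amino acid transporters, which ATF4 also controls, had 10 of 17 measured genes lower and 0 higher, with a median log2 ratio of -1.17. Centred on chromosome medians 9 were lower, and scaled by total counts 10 were lower and 1 higher. Slc7a11, the cystine transporter, had 260 counts in the AI662270 library and 1492 in the control library. Slc6a9, which carries glycine, was 4.16-fold lower (3.62 to 4.795), Slc7a1, which carries arginine and lysine, 3.42-fold lower (3.29 to 3.55) and Slc1a4, which carries small neutral amino acids, 3.15-fold lower (2.85 to 3.49). Cytosolic tRNA synthetases had 6 of 20 lower and 0 higher, with a median of -0.74. Iars, which charges isoleucine, was 2.69-fold lower (2.59 to 2.79), Lars, for leucine, 2.35-fold lower (2.25 to 2.46), Wars, for tryptophan, 2.25-fold lower (2.13 to 2.39) and Tars, for threonine, 2.12-fold lower (2.04 to 2.21). The count of synthetases depended on the scaling, with 3 lower when libraries were scaled by total counts, where Tars was not called (log2 ratio -0.99), and 4 lower with upper quartile scaling or either centring. Centred on their chromosomes, Tars and Wars were not called, at -0.97 and -0.82. For all measured genes the share lower was 5.72%, as given above.

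Chaperones and folding factors that ATF6 and XBP1 induce, the other branches of the response to misfolded protein, had 7 of 18 genes higher and 0 lower, against 5.59% higher over all measured genes, with a median of 0.74. With a pseudocount of 2 CPM 5 were higher. Calr, a calcium-binding chaperone, was 2.68-fold higher (2.62 to 2.75), Dnajc3, which inhibits eIF2alpha kinases, 2.52-fold higher (2.34 to 2.72), Hsp90b1, a chaperone of the lumen, 2.17-fold higher (2.10 to 2.23) and Pdia3, a disulfide isomerase, 2.10-fold higher (2.04 to 2.15). Hspa5, the main chaperone of this compartment, was named after its value was seen, and had 22793 counts in the AI662270 library and 21164 in the control library and a log2 ratio of 0.07. Another list held kinases, subunits and exchange factors of eIF2, with regulators of the kinases and phosphatase subunits. It had 0 of 17 lower and 1 higher, which was the kinase inhibitor Dnajc3 again, with a median of 0.13. Over all measured genes 5.72% were lower.

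Enzymes of the same metabolism outside the set showed no shared direction. Over all measured genes 5.72% were lower and 5.59% higher. Other one-carbon enzymes had 0 of 20 measured genes lower and 1 higher, with a median of 0.10. The higher gene was Gcsh, of the glycine cleavage system, with 920 counts in the AI662270 library and 359 in the control library. Other amino acid enzymes had 2 of 21 lower and 2 higher, with a median of 0.00. The lower ones were Bcat2, a branched-chain transaminase with 15 counts in the AI662270 library and 53 in the control library, a ratio of 0.276 (0.145 to 0.497), and Odc1, the first enzyme of polyamine synthesis, 2.12-fold lower (2.05 to 2.19). Odc1 was not called when scaled by total counts or centred on its chromosome, at log2 ratios of -0.98 and -0.73. Bcat2 was not called with a pseudocount of 2 CPM, at -0.89, and was not measured at a minimum mean of 5 CPM. The higher ones were Pcx, pyruvate carboxylase, at 3.78-fold (3.12 to 4.62), and Ass1, argininosuccinate synthase, at 2.90-fold (2.41 to 3.51).

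Partner factors of the bZIP family had 3 of 15 lower and 2 higher, with a median of -0.42. The shares over all measured genes, for this list and the next, were 5.72% lower and 5.59% higher. Jdp2 was 2.92-fold lower (2.58 to 3.31), Atf6 2.28-fold lower (2.16 to 2.41) and Creb5 2.05-fold lower (1.76 to 2.39), while Cebpd was 2.53-fold higher (2.28 to 2.81) and Creb3l1 2.23-fold higher (1.71 to 2.94). Creb5 was not called under any other scaling or with a pseudocount of 2 CPM, at log2 ratios of -0.98 to -0.92, and Creb3l1 was not called with that pseudocount or when centred on genes of like abundance, at 0.92 and 0.98. Other stress targets had 4 of 23 lower and 2 higher, with a median of 0.08. Gadd45a, which halts the cell cycle after damage, had a 12.4-fold lower level (10.6 to 14.7), and Gdf15, a stress-induced cytokine, had 1610 counts in the AI662270 library and 9071 in the control library and was 5.77-fold lower (5.48 to 6.09). Slc7a11 belongs to this list as well, and Eif4ebp1, an inhibitor of translation initiation, was 2.04-fold lower (1.92 to 2.17). Eif4ebp1 was not called under any other scaling or when centred on genes of like abundance, at log2 ratios of -0.99 to -0.88. The higher genes were Sesn1 and Stc1, a relative of Stc2 with 56 counts in the AI662270 library and 0 in the control library. Stc1 averaged 1.80 CPM and passed the filter through the AI662270 library alone. It was not measured at a minimum mean of 5 CPM. Sesn1 was not called with a pseudocount of 2 CPM, at a log2 ratio of 0.97.

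**Figure D4:**
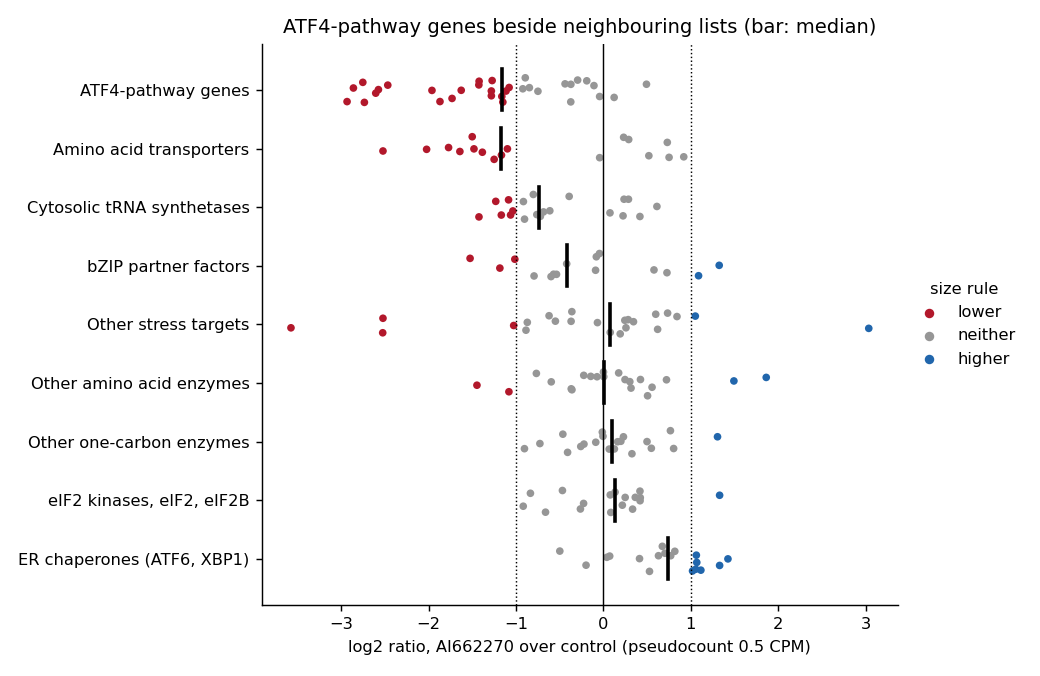
Each point is a measured gene of the ATF4 set or of a neighbouring list, with its log2 ratio (AI662270 over control) on the x axis, coloured by the size rule; black bars are medians. Medians run from -1.17 for the transporters and -1.16 for the ATF4 set to 0.74 for the ER chaperones.

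The promoter core was then set against the ratios of genes outside the ATF4 set. Among measured genes that are not members, 66 had TGATGCAA in their window, and 13 of these, or 19.7%, were lower and 2 higher, and their median log2 ratio was -0.33. Of the 248 with TGATGNAA, 11.7% were lower and 3.63% higher (median -0.18). Of the 9363 genes without either, 4.91% were lower and 5.46% higher (median -0.01). Only members of the ATF4 set were left out here. Genes of the neighbouring lists were not removed, among them the transporters, which ATF4 also controls. The shares are therefore not a check on genes free of ATF4 control. How many of the lower core holders are known ATF4 targets was not counted. A core in a window is a run of letters and not a measured binding site.

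**Figure D5:**
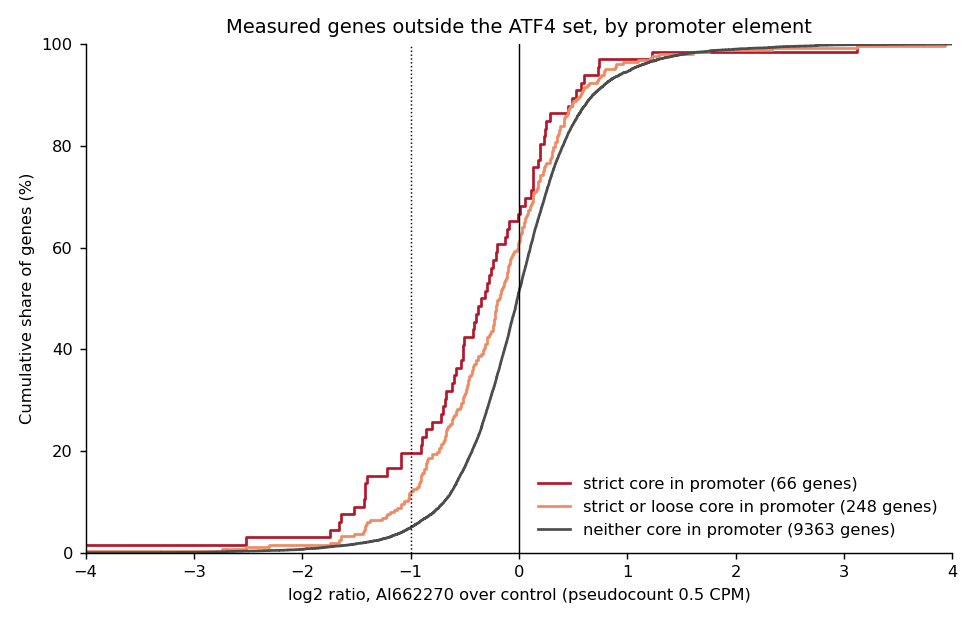
Cumulative share of measured genes outside the ATF4 set (y axis, %) by log2 ratio, AI662270 over control (x axis), for 66 genes with the strict core in the promoter, 248 with the strict or loose core and 9363 with neither; the dotted line marks -1. At that line the strict-core curve stands higher than the curve without a core. The shares called lower, 19.7% and 4.91%, are not the heights there, since a call also needs the interval to leave out 1.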

How the data were processed

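Reads were handled with TopHat2 and CASAVA 1.4 and the build was mm10, per the submitters' processing notes. No source used here gives the read counter, the annotation release or the strand setting, so overlapping genes cannot be told apart. The deposited counts are whole reads per gene, not normalized. The deposited FPKM columns equal counts divided by gene length and by 15391166 in both libraries and were used to order genes within a library. The signal columns deposited by the authors hold rescaled counts and were left out. The deposited log2 fold changes and p-values come from the authors, per the file headers, for 1 library against 1 library, and are not quoted.

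Counts were scaled with TMM in edgeR 4.0.16 (R 4.3.3), with factors of 1.03 for the AI662270 library and 0.967 for the control library. Ratios, Clopper-Pearson intervals and exact conditional intervals for quotients of gene pairs were computed in Python 3.11.15 with scipy 1.17.1. No p-value was computed, since there is no spread between replicates. Reads carry no molecular identifiers, so intervals and floors hold counting error alone. The 33 genes, the lists, the motifs and the rule were chosen with earlier results of these data known. All 33 genes were named, and from each of 8 neighbouring lists up to 4 genes past the rule each way, by size.

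The alternatives tried were size factors of DESeq2 1.42.0, total counts or the upper quartile for scaling, a pseudocount of 0.1 or 2 CPM, a minimum mean of 5 CPM or none, only protein-coding genes, centring on chromosome medians or on 20 bins of abundance, and thresholds of 1.5-fold and 3-fold.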

Additional observations from a re-analysis of the deposited data

How the results depend on the processing

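The count of 20 lower and 0 higher stress response genes ranged over 19 to 21 lower, with 0 higher, under all alternatives of scaling, pseudocount, filter, gene class and centring. It was 24 at a threshold of 1.5-fold and 11 at 3-fold, where the rule itself sets the number. The median log2 ratio of the measured members ran from -1.22 to -1.07. No log2 ratio of a called member changed sign under any alternative. Besides Pycr1 and Cebpg, whose lost calls are given above, Psph gained a call when centred on its chromosome, at a log2 ratio of -1.0003. Over all genes, 400 were higher with a pseudocount of 2 CPM and 391 with a mean of at least 5 CPM, against 742. At 1.5-fold 1893 genes were lower and 1705 higher, and at 3-fold 262 and 247, against 759 lower and 742 higher. In the neighbouring lists together 43 were lower and 31 higher at 1.5-fold, and 6 and 2 at 3-fold, against 24 and 14. Scaling counts per kilobase by TMM keeps the order of members by FPKM by construction, and was not counted as an alternative. No paired analysis was possible because each group has 1 library. Depth limits Cbs and Fgf21 most, with 35 and 23 counts in the AI662270 library.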
